A study of Mus musculus with 14 samples.

Results

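Microglia, the resident macrophages of the brain, carry a set of surface receptors that are abundant in the undisturbed state and by which they are commonly recognised. The RNA of 9 such genes was followed here: the fractalkine receptor Cx3cr1, the CSF1 receptor Csf1r, the ADP receptors P2ry12 and P2ry13, the lipid receptor Trem2 with its signalling adaptor Tyrobp (DAP12), the lectin Siglech, the transmembrane protein Tmem119 and the selectin ligand Selplg (PSGL-1). They were chosen by name as a set of known receptors, with earlier results of these data known, and all 9 were among the 22485 gene symbols of the deposited count table. All 9 passed the filter on low counts that left 13063 genes, and all 9 also passed it when it was applied to the control libraries alone.

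The receptors link microglia to their surroundings. CX3CR1 binds fractalkine, a chemokine made by neurons, and CSF1R binds CSF1 and IL-34, signals that microglia need to survive. P2RY12 and P2RY13 sense ADP and steer the movement of microglial processes, and TREM2 and SIGLECH signal through TYROBP, a small adaptor that recruits the kinase SYK. Loss of homeostatic receptor RNA, P2ry12 and Tmem119 in particular, is a widely used sign of microglial activation in the mouse.

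The 14 libraries came from hippocampal tissue of C57BL/6, with wild-type genotype in the authors' sample table. Dissociated tissue spent 75 min at room temperature in artificial cerebrospinal fluid containing pronase (1 mg/ml), a protease mixture, and was then vortexed, spun and pipetted in fluid with 1% FBS. Control tissue was homogenised without this step, and RNA of both was extracted with the same kit. CA1 gave 3 dissociated and 3 control libraries, and CA3 and the dentate gyrus (DG) gave 2 dissociated and 2 control libraries each. All came from 1 mouse, so that p-values reflect how samples of this 1 animal varied and not how mice vary.

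Total counts were 65887 to 4782767 in dissociated and 1285654 to 6646655 in control libraries. Of the dissociated libraries, 3 held under 500000 counts: replicates 2 and 3 of CA1 and replicate 3 of DG. Markers of DG granule cells followed the label, with summed values of 532 to 1823 CPM (counts relative to the library total, scaled by TMM) in DG libraries and at most 160 CPM elsewhere. Markers of CA1 and CA3 did not always do so. The library labelled CA1 dissociated replicate 3 had 59.4 CPM of CA1 markers and 676 CPM of CA3 markers, and the libraries labelled CA3 dissociated replicate 1 and CA3 control replicate 1 had 1635 and 2022 CPM of CA1 markers. CA3 markers also reached 504 CPM in DG control replicate 2 and 515 CPM in DG dissociated replicate 3. They were 107 CPM in DG control replicate 3 and 117 CPM in DG dissociated replicate 4. Regions are therefore named here as the labels give them. The mitochondrial share of counts was 6.18 to 14.4% in dissociated and 4.08 to 7.07% in control libraries.

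Because several of the 9 genes showed similar differences, the sequence just upstream of their starts is shown for the 5 that had an entry in the promoter table (RefSeq, GRCm38.p6). Each run gives the 100 bases before the RefSeq start, on the strand of the gene. For P2ry12 and Siglech this start differs from that of the GENCODE coordinates given below. Capitals mark AGGAAG or its reverse complement CTTCCT, a longer form of GGAA, the core bound by ETS factors. These are the family of the macrophage regulator PU.1.
Cx3cr1, chr9:120068297-120068396, minus strand: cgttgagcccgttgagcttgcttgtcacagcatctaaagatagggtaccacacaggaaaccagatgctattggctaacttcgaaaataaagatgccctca
P2ry12, chr3:59262986-59263085, minus strand: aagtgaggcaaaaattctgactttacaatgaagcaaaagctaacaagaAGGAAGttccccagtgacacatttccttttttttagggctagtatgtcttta
P2ry13, chr3:59210883-59210982, minus strand: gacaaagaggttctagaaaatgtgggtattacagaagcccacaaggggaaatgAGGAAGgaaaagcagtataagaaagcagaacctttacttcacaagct
Trem2, chr17:48346301-48346400, plus strand: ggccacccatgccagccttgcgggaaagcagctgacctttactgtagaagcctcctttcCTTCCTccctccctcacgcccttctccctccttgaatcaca
Siglech, chr7:55768084-55768183, plus strand: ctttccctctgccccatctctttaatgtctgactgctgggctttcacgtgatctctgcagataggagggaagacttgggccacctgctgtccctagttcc
AGGAAG, searched on both strands over 250 bases upstream, was present once in P2ry12 (52 bases before the start) and once in P2ry13 (47 bases). It was present once, on the opposite strand, in Trem2 (41 bases). It was not found in Cx3cr1 or Siglech, whose printed runs do hold the shorter GGAA. Thus 3 of 5 held AGGAAG or CTTCCT, against 29.5% of 32851 promoters. GGAA alone was not counted. The longer GAGGAAGT or ACTTCCTC, which contains AGGAAG or CTTCCT, was in none of the 5 and in 2.44% of the 32851. A match of letters says nothing about binding.

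All 9 receptor genes had a positive log2 fold change of dissociated over control tissue across the 3 regions, between 1.22 and 1.99 with a median of 1.69. Of them, 3 rose by the test across all genes, Csf1r, Cx3cr1 and Selplg, and the other 6 did not pass it (edgeR quasi-likelihood test, Benjamini-Hochberg adjusted p under 0.05). The same call was made for 0.727% of the 13063 genes, and the median of all genes was −0.11. All 9 had an unadjusted p under 0.05 with a positive fold change, as did 6.11% of all genes, and 41.9% of all genes had a positive value. No receptor gene was called lower, as were 0.0459% of all genes. In bulk tissue, more microglia in a sample and more RNA per microglial cell cannot be told apart.

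**Figure D1:**
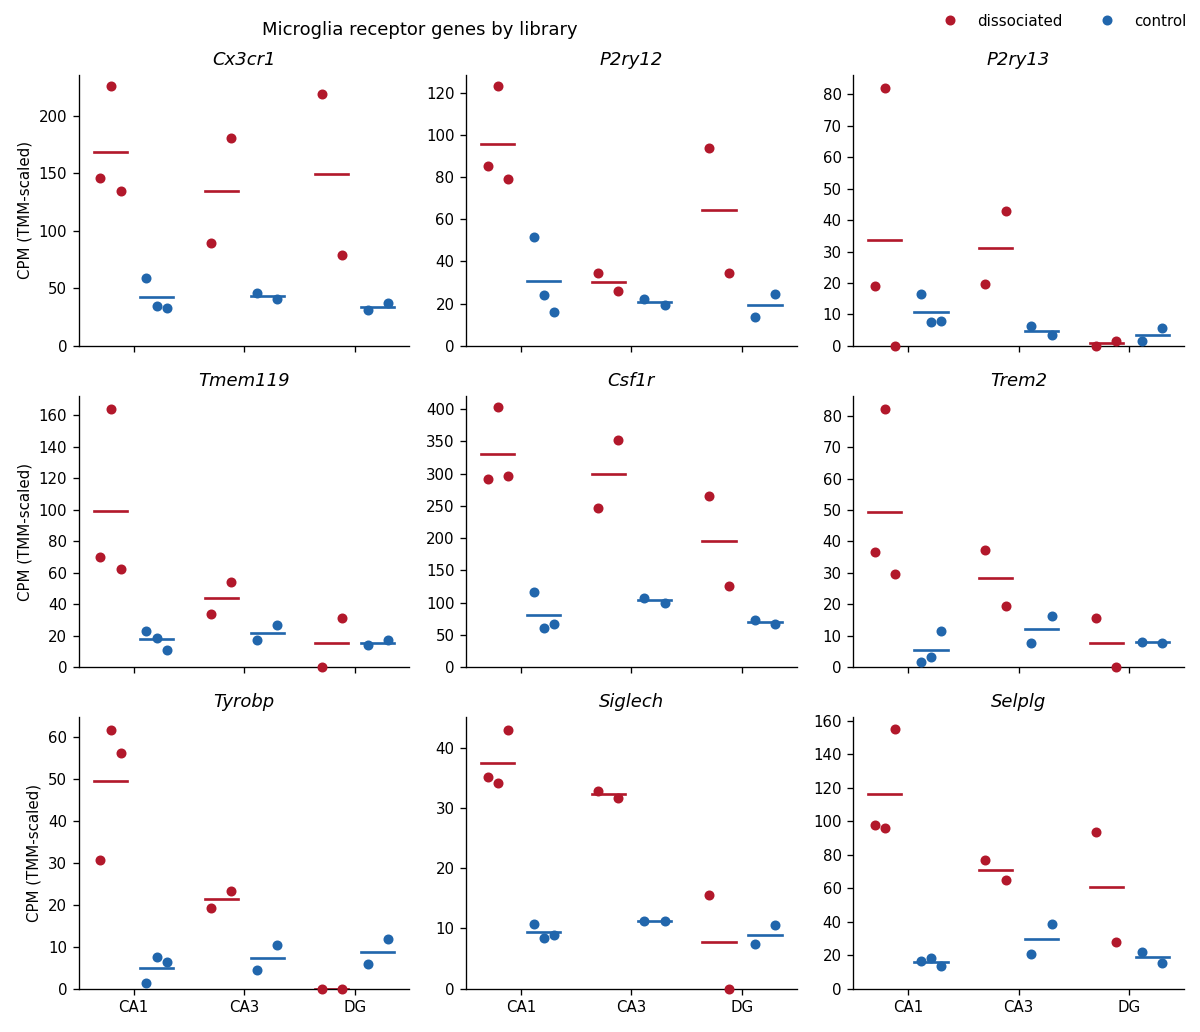
CPM (TMM-scaled, linear axis from 0) of each receptor gene in each library, by region; points are libraries, dissociated in red on the left and control in blue on the right of each pair, and bars are group means. Every dissociated library lay above every control library for Cx3cr1 and Csf1r, while Tyrobp stood at 0 in both dissociated DG libraries.

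Csf1r, the most abundant of the set in counts, had 126 to 403 CPM in the 7 dissociated libraries (median 291) and 61 to 117 CPM in the 7 control libraries (median 73.3). The groups did not overlap, and the lowest dissociated library was DG replicate 4. The log2 fold change was 1.69 ± 0.23 (SE), with an edgeR adjusted p of 0.00158. Csf1r lies on chromosome 18 (61105572 to 61132149, GRCm38), where 873 of its exon bases are shared with the antisense gene Hmgxb3, and the sequencing strand is not given in the sources used here.

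Cx3cr1 had 79.4 to 226 CPM in dissociated libraries (median 146) and 30.8 to 59 CPM in control libraries (median 37.6). Again every dissociated library was above every control library. Its log2 fold change was 1.84 ± 0.26 (SE, edgeR adjusted p = 0.00158). The gene spans 119901616 to 120068296 of chromosome 9 (GRCm38), and no exon of another gene overlaps its exons. Cx3cr1 and Csf1r were the only receptor genes whose 2 groups did not overlap over all regions, which held for 0.245% of all genes.

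Selplg, whose protein is the ligand of P-selectin, had 28.1 to 155 CPM in dissociated libraries (median 93.7) and 13.4 to 38.8 CPM in control libraries (median 18.1). The groups overlapped through DG dissociated replicate 4 (28.1 CPM), which lay below CA3 control replicate 4 (38.8 CPM). The log2 fold change was 1.99 ± 0.33 (SE, edgeR adjusted p = 0.005), and it was 1.65 with an adjusted p of 0.0627 without the 3 libraries under 500000 counts. Without the 3 libraries whose CA1 and CA3 markers go against the label, the log2 fold change was 2.05 for Cx3cr1, 1.80 for Csf1r and 1.84 for Selplg, and all 3 still passed.

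Tmem119, a membrane protein used as a microglia marker in the mouse brain, had 0 to 164 CPM in dissociated libraries (median 53.9) and 11.2 to 27.1 CPM in control libraries (median 17.4). Tmem119 (chromosome 5, 113793729 to 113800516) and Selplg (chromosome 5, 113818536 to 113832644, GRCm38) lie 18019 bases apart, with the gene Gm19931 between them. The single dissociated library below the controls was DG replicate 3, the shallowest, at 0 counts, where 3 counts would be 46.8 CPM. The log2 fold change was 1.54 ± 0.38 (SE) and the edgeR adjusted p 0.0594. It passed, with an adjusted p of 0.0401, 0.0499, 0.0474, 0.034 and 0.0332, when 1 library was left out, namely DG control replicate 2, DG control replicate 3, CA3 dissociated replicate 1, DG dissociated replicate 3 and DG dissociated replicate 4 in that order.

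The 2 ADP receptors are neighbours on chromosome 3, both on the minus strand and inside the gene Med12l of the plus strand (P2ry13 at 59207892 to 59210882 and P2ry12 at 59216272 to 59262871, GRCm38), 5389 bases apart with no gene between. P2ry12 had 26 to 123 CPM in dissociated libraries (median 79.2) and 13.9 to 51.4 CPM in control libraries (median 22.3). The ranges overlapped because CA1 control replicate 1 (51.4 CPM) exceeded 3 dissociated libraries, both of CA3 and DG replicate 4. The log2 fold change was 1.22 ± 0.33 (SE, edgeR adjusted p = 0.0853), the smallest of the 9. P2ry13, at lower counts, had 0 to 82.1 CPM in dissociated libraries (median 19) and 1.47 to 16.5 CPM in control libraries (median 6.31), with a log2 fold change of 1.49 ± 0.68 (SE, edgeR adjusted p = 0.372). It was at 0 counts in CA1 dissociated replicate 3 and DG dissociated replicate 3.

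Trem2 (chromosome 17, 48346401 to 48352273), Tyrobp (chromosome 7, 30413760 to 30417585) and Siglech (chromosome 7, 55768178 to 55778925, GRCm38) share no exon bases with another gene. Trem2 had 0 to 82.1 CPM in dissociated libraries (median 29.7) and 1.79 to 16.3 CPM in control libraries (median 7.77), a log2 fold change of 1.74 ± 0.63 (SE, edgeR adjusted p = 0.252). Tyrobp, its adaptor, had 0 to 61.5 CPM in dissociated libraries (median 23.2) and 1.34 to 11.7 CPM in control libraries (median 6.27), a log2 fold change of 1.75 ± 0.68 (SE, edgeR adjusted p = 0.287). Siglech, a lectin of the sialic acid-binding family that also pairs with TYROBP in the mouse, had 0 to 42.9 CPM in dissociated libraries (median 32.9) and 7.33 to 11.3 CPM in control libraries (median 10.6), a log2 fold change of 1.31 ± 0.50 (SE, edgeR adjusted p = 0.271). For all 3 genes the only dissociated libraries below any control library were in DG. Every dissociated library of CA1 and CA3 was above every control library of all regions. The share of all genes for which this holds was not counted, and DG was set apart after the values were seen. The control library with the lowest Trem2 and Tyrobp, CA1 replicate 1 (1.79 and 1.34 CPM, from 4 and 3 counts), was the one with the highest Cx3cr1, P2ry12 and Csf1r (59, 51.4 and 117 CPM).

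**Figure D2:**
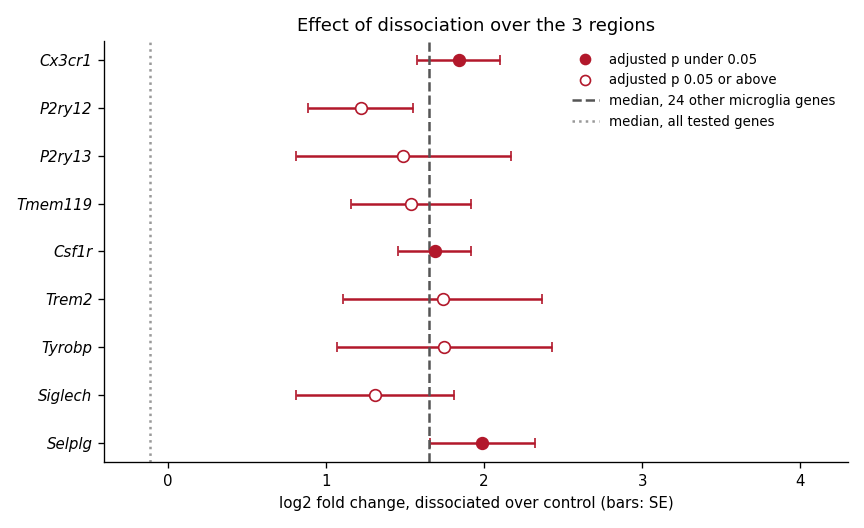
Log2 fold change of dissociated over control tissue for each receptor gene (points, bars are SE); filled points had an edgeR adjusted p under 0.05. All 9 lie right of the median of all tested genes (−0.11) and around that of the 24 other microglia genes (1.65).

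The number of receptor genes called depended on 1 library. Without DG dissociated replicate 4, 8 of the 9 were called higher, all but P2ry13, when 1.46% of 13915 genes were. Over the other 13 fits that left out 1 library, 3 or 4 were called, always including Csf1r, Cx3cr1 and Selplg. In the fit with the fewest genes called higher, without CA1 control replicate 2, these 3 were among 37 such genes of 12950 tested. In CA1 and CA3 libraries alone, 7 of 9 were called, when 1.6% of 12659 genes were. There the log2 fold changes of Trem2, Tyrobp and Siglech were 2.26, 2.45 and 1.79 (edgeR adjusted p = 0.0352, 0.0192 and 0.0102).

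Within CA1 all 9 log2 fold changes were positive (median 2.01), as were those of 46.3% of all genes, and 8 genes, all but P2ry13, had every dissociated library above every control library, as had 7.16% of all genes. Selplg had 97.5, 95.7 and 155 CPM in dissociated CA1 against 16.5, 18.1 and 13.4 CPM in control CA1, a log2 fold change of 2.84 ± 0.43 (SE, edgeR adjusted p = 0.0135). Csf1r had 291, 403 and 297 CPM against 117, 61 and 66.7 CPM, a log2 fold change of 2.01 ± 0.35 (SE, edgeR adjusted p = 0.0268). These were the 2 receptor genes called in CA1, where 0.191% of all genes were called higher. The other 7 had adjusted p values of 0.053 (Cx3cr1) to 0.599 (P2ry13), and all but P2ry13 had an unadjusted p under 0.05, as had 6.02% of all genes with a positive value.

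Both calls in CA1 were lost when single libraries were left out, while the log2 fold changes of those fits were 1.83 to 2.07 for Csf1r and 2.58 to 2.94 for Selplg. Without CA1 dissociated replicate 2 or 3 the adjusted p was 0.159 or 0.0576 for Csf1r and 0.0823 or 0.0576 for Selplg (edgeR). Without CA1 control replicate 2 or 3 it was 0.238 or 0.203 for Csf1r and 0.148 or 0.161 for Selplg (edgeR). Without the 3 libraries whose CA1 and CA3 markers go against the label, Selplg kept its call in CA1 (log2 fold change 2.60, adjusted p = 0.0446) and Csf1r did not (2.08, adjusted p = 0.0695). CA1 dissociated replicate 2, with 135065 counts, was the highest of all 14 libraries for 7 of the 9 receptor genes.

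Within CA3 the 9 log2 fold changes were positive as well (median 1.50), as were those of 46.2% of all genes, and all 9 genes had both dissociated libraries above both control libraries, as had 15.7% of all genes. Cx3cr1 had 89.2 and 181 CPM in dissociated CA3 against 45.6 and 40.4 CPM in control CA3, a log2 fold change of 1.64 ± 0.48 (SE). P2ry12 had 34.5 and 26 CPM in dissociated CA3 against 22.3 and 19.6 CPM in control CA3, a log2 fold change of 0.54 ± 0.56 (SE), the smallest positive value of any receptor gene in any region. P2ry13 had 19.7 and 42.8 CPM in dissociated CA3 against 6.31 and 3.33 CPM in control CA3, a log2 fold change of 2.67 ± 1.05 (SE). No receptor gene passed the adjusted test in CA3, and neither did any other gene (0% of 13063). At an unadjusted p under 0.05, 5 passed there, Cx3cr1, P2ry13, Csf1r, Siglech and Selplg, and 2.55% of all genes did so with a positive value.

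In DG the log2 fold changes had both signs. Cx3cr1, Csf1r, P2ry12 and Selplg had both dissociated libraries above both control libraries, as had 8.25% of all genes. Cx3cr1 had 219 and 79.4 CPM in dissociated DG against 30.8 and 37.6 CPM in control DG, a log2 fold change of 1.87 ± 0.55 (SE). Csf1r had 265 and 126 CPM in dissociated DG against 73.3 and 66.3 CPM in control DG, a log2 fold change of 1.34 ± 0.46 (SE). P2ry12 and Selplg, at 93.7 CPM each in dissociated replicate 3 and at 34.7 and 28.1 CPM in dissociated replicate 4, had log2 fold changes of 1.34 ± 0.67 and 1.25 ± 0.62 (SE). These sizes depended on which dissociated DG library was in the fit. Without replicate 3 the values of Cx3cr1, Csf1r, P2ry12 and Selplg were 1.18, 0.83, 0.78 and 0.59, and without replicate 4 they were 2.66, 1.92, 2.23 and 2.34. Tmem119 had 0 and 31.4 CPM in dissociated DG against 13.9 and 17.4 CPM in control DG, so its 2 dissociated libraries lay on either side of both controls.

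The adaptor Tyrobp was not detected in dissociated DG. It had 0 counts in both dissociated DG libraries against 8 and 73 counts (5.86 and 11.7 CPM) in the control DG libraries, replicates 2 and 3. The ratio of pooled CPM was 0, with a 95% exact Poisson interval that reached 0.518. With 3 counts over the 2 dissociated libraries (4.48 CPM) taken as the limit of detection, pooled control DG (10.6 CPM) was 2.37-fold above it. The interval allows a smaller difference, so 2.37-fold is not a lower bound. This fold limit rests on 2 libraries. In dissociated replicate 3, 3 counts are 46.8 CPM, above every control value, so that replicate 3 alone gives no limit, while replicate 4 alone gives 2.15-fold. Of the 81 control counts, 73 came from replicate 3, and without it the limit was 1.31-fold. Both dissociated libraries were below both controls for 32.2% of all genes in DG, and Tyrobp did not pass the adjusted test there (edgeR adjusted p = 0.264).

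The TYROBP partners Trem2 and Siglech, and P2ry13, had at most 1 count in either dissociated DG library. Trem2 had 1 and 0 counts in dissociated DG, in replicates 3 and 4, against 11 and 48 in control DG, a ratio of pooled CPM of 0.193 (95% exact Poisson interval 0.00488 to 1.07). Siglech had 1 and 0 counts against 10 and 66, a ratio of 0.15 (0.00379 to 0.834). P2ry13 had 0 and 1 counts against 2 and 36, a ratio of 0.299 (0.00758 to 1.67). In the shallow replicate 3 a single count is 15.6 CPM, so that Trem2 and Siglech stood above both control DG libraries there (8.06 and 7.68 CPM for Trem2, 7.33 and 10.6 CPM for Siglech), and the low ratios come from replicate 4. These intervals cover only the counting error of the dissociated group, and reads that carry no molecular identifiers can be copies of 1 molecule. In the same 2 libraries Cx3cr1 had 14 and 48 counts, and Csf1r had 17 and 76. No receptor gene was called higher or lower in DG by the edgeR test with adjustment, where 0.0383% of all genes were called higher and 0.122% lower. At an unadjusted p under 0.05, 3 passed, Cx3cr1 and Csf1r with positive values, as had 3.09% of all genes, and Tyrobp with a negative one, as had 11% of all genes.

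**Figure D3:**
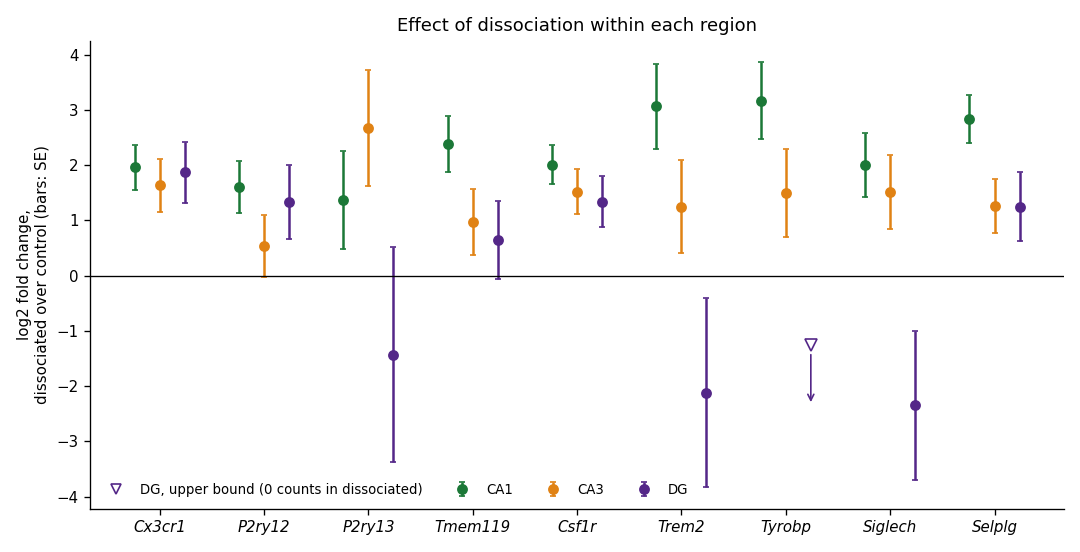
Log2 fold change of dissociated over control tissue for each receptor gene within CA1, CA3 and DG (points, bars are SE). All values of CA1 and CA3 are above 0, while in DG P2ry13, Trem2 and Siglech are below 0. Tyrobp in DG is drawn at the level of 3 counts (−1.25, open triangle with arrow) because its dissociated DG libraries held 0 counts. The legend names this level an upper bound, but the 95% exact Poisson interval of the ratio reached 0.518, which allows a smaller difference.

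Whether dissociation acted differently between regions was tested by the interaction of treatment with region. No receptor gene passed (edgeR adjusted p from 0.381 for Tyrobp to 0.975 for Cx3cr1), and 0% of all genes did. At an unadjusted p under 0.05 there were 4, Tyrobp (0.0016), Siglech (0.0196), Trem2 (0.0216) and Selplg (0.0356), as were 8.51% of all genes. For Trem2 and Siglech the effect in DG minus that in CA1 was −5.20 ± 1.75 and −4.35 ± 1.41 on the log2 scale (SE, edgeR adjusted p = 0.231 and 0.219). Leaving out 1 library moved them between −10.32 and −2.07 for Trem2 and between −9.48 and −1.22 for Siglech, the ends without DG dissociated replicate 3 and without replicate 4. No difference between regions was thus detected after adjustment. The dissociated DG libraries held 65887 and 598775 counts, and the part of depth in this outcome was not tested.

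Some other microglia genes were also at 0 in both dissociated DG libraries, namely Cd53, Ly86, P2ry6, Ptprc and Slc2a5, 5 of 24. Of those, Cd53 and Ly86 had control DG levels above the limit of 3 counts, by 2.31-fold and 1.26-fold. Without DG control replicate 3 Ly86 was not above that limit, and without DG dissociated replicate 4 neither gene was. In DG, 17 of the 24 had a positive log2 fold change, as had 5 of the 9 receptor genes and 38.8% of all genes. In CA1 and in CA3 all 24 were positive, like all 9 receptor genes. The medians of the 24 were 2.17 in CA1, 1.32 in CA3 and 0.99 in DG, beside 2.01, 1.50 and 0.65 for the receptor genes and −0.06, −0.05 and −0.27 for all genes.

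Over the 3 regions the 24 other microglia genes, which include complement, lysosomal and lineage genes, had a median log2 fold change of 1.65. All 24 were positive and 10 rose by the test across all genes. Of the 24, 5 were called without CA1 control replicate 2 or 3 or CA3 dissociated replicate 4, and 6 without CA3 control replicate 1 or 4 or CA1 dissociated replicate 2. Mpeg1, a pore-forming protein of macrophages, and Ctss, a lysosomal protease, had log2 fold changes of 2.03 ± 0.29 and 1.88 ± 0.29, and C1qb, a subunit of complement C1q, had 1.68 ± 0.25 (SE, edgeR adjusted p at most 0.00233).

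The receptor genes summed to 301 to 1272 CPM in dissociated libraries (median 796) and to 175 to 297 CPM in control libraries (median 197). The lowest dissociated library, DG replicate 4, was just above the highest control library, CA1 replicate 1. Divided by the sum of the 24 other microglia genes, this gave 0.536 ± 0.0901 in dissociated and 0.507 ± 0.0659 in control libraries (SD, n = 7 each), a difference smaller than the spread within either group. The mean makeup of the set was also close, but not that of every dissociated library. In each dissociated DG library 3 of the 9 genes were at 0, and in control libraries none was. Dissociated DG replicates 3 and 4 held 45 and 182 receptor counts, against 241 to 1242 in control libraries. The share of all genes at 0 in these DG libraries was not counted, and a change of makeup was not tested. Shares of Tmem119 were 0 to 12.9% in dissociated and 6.38 to 10.1% in control libraries. Those of Tyrobp were 0 to 6.54% and 0.451 to 5.93%. Csf1r was 38.3 ± 4.52% of the receptor counts in dissociated and 38.2 ± 4.03% in control libraries, and Cx3cr1 was 21 ± 6% and 18.3 ± 1.59%. Siglech was 3.4 ± 1.91% and 4.52 ± 0.594%, and P2ry12 was 9.06 ± 3.43% and 10.9 ± 3.57% (SD, n = 7 each).

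**Figure D4:**
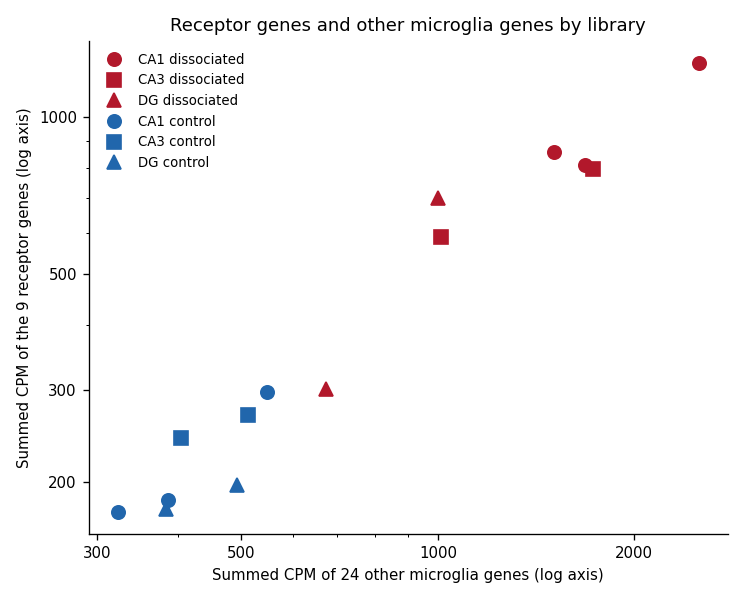
Summed CPM of the 9 receptor genes against that of 24 other microglia genes in each library, both axes logarithmic; red is dissociated and blue is control, and the shape gives the region. The libraries lie along one band, with the dissociated ones at 301 to 1272 CPM of receptor genes and the control ones at 175 to 297 CPM.

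Of genes tied to the receptors by function, the signalling partners had a median log2 fold change of 1.28 over 13 tested of 15. All 13 were positive and 1 rose, Inpp5d, the inositol phosphatase SHIP1 that opposes TYROBP signalling, with 51.5 ± 35.4 CPM in dissociated and 8.71 ± 3.37 CPM in control libraries (SD, n = 7 each, log2 fold change 2.39 ± 0.47 SE, edgeR adjusted p = 0.0162). Without CA3 dissociated replicate 4 no partner gene was called. The ligands and the enzymes that release or break them down had a median of 0.44 over 6 tested of 9, with none called in either direction. Csf1, a ligand of CSF1R, had 45.8 ± 25.4 CPM in dissociated and 18.2 ± 12.8 CPM in control libraries (SD, n = 7 each, log2 fold change 1.50 ± 0.38 SE, edgeR adjusted p = 0.0666). The selectin genes Selp and Sele were at 0 counts in all 14 libraries.

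Genes of microglial activation had a median log2 fold change of 1.25 over 13 tested of 16, of which 12 were positive and 2 rose. That count was 0 without any 1 of 5 libraries (CA1 control replicate 2, CA3 control replicates 1 and 4, CA1 dissociated replicate 1 and CA3 dissociated replicate 4), 4 without DG control replicate 2 and 6 without DG dissociated replicate 4, and 1 without any of the other 7. Tlr2, a receptor of innate immunity, had 26.9 ± 9.84 CPM in dissociated and 4.71 ± 2.46 CPM in control libraries (SD, n = 7 each), and the cytokine gene Tnf had 22.7 ± 7.97 and 6.26 ± 3.11 CPM (SD, n = 7 each). Their log2 fold changes were 2.44 ± 0.53 and 1.90 ± 0.45 (SE, edgeR adjusted p = 0.0229 and 0.049). Lpl, a lipase, was the 1 activation gene with a negative value (−0.21).

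Among genes of other cells, those of oligodendrocytes were also higher in dissociated tissue. Of 12 oligodendrocyte genes, 10 rose, with a median log2 fold change of 1.94 and a summed level of 1567 to 13498 CPM in dissociated libraries against 667 to 4051 CPM in control libraries. Without CA1 control replicate 2 or CA3 dissociated replicate 4, 6 of them were called. The part of oligodendrocyte RNA, mitochondrial RNA or depth in the receptor values was not tested. Astrocyte, endothelial and excitatory neuron genes had medians of 0.73, 0.36 and −0.36, and none of the 10, 9 and 9 tested was called in either direction. Markers of border macrophages and blood leukocytes, which also use CSF1R and TYROBP, summed to 4.96 to 62.4 CPM in dissociated libraries (median 42.7) and 5.13 to 28.6 CPM in control libraries (median 11.7), and their part in the receptor values was not tested either. Only 1 of these 17 genes, Stab1, had enough counts to be tested (log2 fold change 1.56 ± 0.46 SE, edgeR adjusted p = 0.125). Stab1 made up most of the sums, with a mean of 35.1 of 39.2 CPM in dissociated and 10.9 of 13.9 CPM in control libraries. Of the 17, 10 were at 0 in every dissociated library, among them Lyve1, Ms4a7, Ly6c2 and S100a8. In every control library 8 were at 0, Ms4a7 and S100a8 among them.

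**Figure D5:**
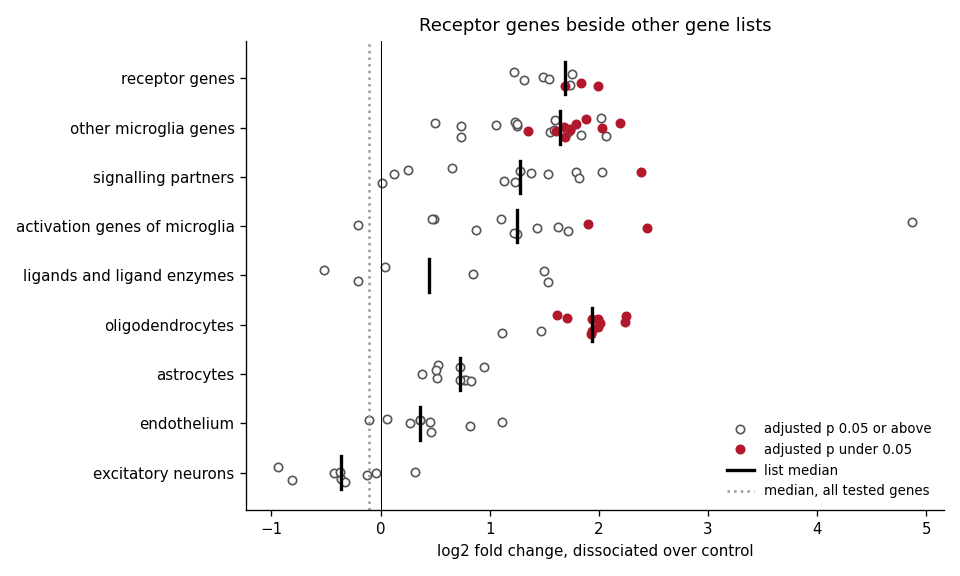
Log2 fold change of dissociated over control tissue for each tested gene of the lists (points, filled where the edgeR adjusted p was under 0.05) with the list median (bar). The receptor genes (median 1.69) lie beside the other microglia genes (1.65) and the oligodendrocyte genes (1.94); the activation gene near 5, Cst7, was at 0 in every control library, so that its fitted value has no fixed size.

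Between regions, with treatment in the model, no receptor gene was called. In CA1 over DG all 9 log2 differences were positive (median 0.76), as were 47.3% of all genes, of which 1.98% were called higher and 2.07% lower. In CA3 over DG 8 were positive (median 0.59), as were 52.9% of all genes, of which 0.888% were called higher and 0.88% lower. In CA1 over CA3, 5 were positive (median 0.13), as were 43.8% of all genes, of which 0.00766% were called higher and 0.107% lower, and the largest was that of P2ry12, 1.04 ± 0.38 (SE, edgeR adjusted p = 0.632). At an unadjusted p under 0.05 these 3 comparisons held 1, 1 and 1 receptor genes by edgeR, P2ry13, Csf1r and P2ry12, each with a positive value, as had 7.08%, 6.32% and 1.8% of all genes.

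On the TPM scale (transcript level scaled to a common total), which corrects for length and allows genes to be set side by side, the order in dissociated tissue was Selplg (125 ± 139), Tyrobp (123 ± 119), Csf1r (123 ± 39.2), P2ry12, Cx3cr1, Trem2, Tmem119, Siglech and P2ry13 (16.7 TPM, means over 7 libraries with SD). In control tissue it was Csf1r (47.7 TPM), P2ry12 (37), Tyrobp (36.6), Selplg (26.5), Cx3cr1 (24.7), Trem2 and Tmem119 (18.6 each), Siglech (12.5) and P2ry13 (6.42). Neighbours in these orders differed by more than 1 SD only from Csf1r to P2ry12 and from Siglech to P2ry13 in dissociated tissue, and from Tmem119 to Siglech and from Siglech to P2ry13 in control tissue. Selplg reached 437 TPM in CA1 dissociated replicate 3, where 299 TPM came from 9.58 estimated counts of its 386-base transcript Selplg-006.

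How closely each gene followed the rest of the set was described by the Pearson correlation of its log2 CPM with the mean of the other 8 over 14 libraries, which share depth and treatment. It was highest for Trem2 (0.78), Csf1r (0.77) and Siglech (0.77) and lowest for P2ry13 (0.41). Over the 7 dissociated libraries all 9 values were positive. Over the 7 control libraries Trem2, Tyrobp and P2ry13 had −0.28, −0.32 and −0.21, against 0.84, 0.91 and 0.53 over the dissociated ones. Siglech had 0.90 and Csf1r 0.43 in control. Trem2, Tyrobp and Siglech shared 0 counts in DG dissociated replicate 4, and P2ry13, Tmem119 and Tyrobp in DG dissociated replicate 3. In CA1 control replicate 1 Trem2 and Tyrobp had 4 and 3 counts. The part of such low counts in these correlations was not tested. Outside the set, the genes whose log2 CPM was most like the mean of the 9 were Laptm5 (0.943), Lamtor4 (0.935), Cd83 (0.894), Clec2l (0.873), Slc2a5 (0.872) and Itgb5 (0.871), out of 11505 genes with at least 5 CPM. Of these, Laptm5, a lysosomal membrane protein of blood-lineage cells, was called higher (log2 fold change 1.61 ± 0.35 SE, edgeR adjusted p = 0.0229). Cd83 and Lamtor4 had log2 fold changes of 1.43 ± 0.40 and 0.75 ± 0.36 (SE, edgeR adjusted p = 0.109 and 0.396).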

How the data were processed

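RNA of 14 libraries was analysed. Gene counts were deposited by the authors as a table of 22485 symbols. They were whole numbers within 0.5 of the sums of transcript estimates. Estimated counts and TPM of 58716 transcripts were deposited per the file headers in the format of kallisto. The submitters' processing notes list the tools FastQC, cutadapt, kallisto and DESeq2 and give no versions. No build is named there.

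Counts were tested with edgeR 4.0.16 (R 4.3.3) on all 14 libraries: filterByExpr on the 6 groups, TMM scaling, an additive model of region and treatment, and 1 mean per group for effects within regions and for the interaction, with Benjamini-Hochberg adjustment over 13063 genes. CPM values use the TMM-scaled library size. Log2 fold changes are dissociated over control, and SEs were derived from the F statistic. The script was tested on simulated data. DESeq2 1.42.0, limma 3.58.1 on log2(TPM + 1) and log2(TPM + 0.1), other scalings, no filter, a replicate block and left-out libraries were alternatives.

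Coordinates are those of GENCODE M21, matched by transcript identifier. The 9 genes and all lists were chosen with earlier results of these data known. All 9 are named; from each list up to 4 genes called with the smallest p, or the 1 with the smallest p, and the 6 genes most like the set. A gene that this rule named is not reported here. Cd53, Ly86, P2ry6, Ptprc, Slc2a5 and the genes at 0 were named after their values were seen.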

Additional observations from a re-analysis of the deposited data

Results flagged for a closer look

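Dixon's test at the 95% level was applied to 18 groups of 7 libraries, 1 per receptor gene and treatment. In 3 groups a library was set apart from the other 6. Chance alone gives about 1 in 20 for like and independent values. These groups pool 3 regions and unequal depths, and the genes share libraries. The count of 3 therefore cannot be set against that rate and is a description. Tmem119 had 164 CPM in CA1 dissociated replicate 2, a library of 135065 counts in which 24 counts made up this value. P2ry12 had 51.4 CPM in CA1 control replicate 1, where Cx3cr1 and Csf1r were also the highest of the control libraries and Tyrobp the lowest. Selplg had 38.8 CPM in CA3 control replicate 4, from 93 counts.

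Tyrobp was at 0 counts in both dissociated DG libraries. In CA1 and in CA3 every dissociated library was above the controls of its region, as for 7.16% and 15.7% of all genes. In DG replicate 3, 3 counts are 46.8 CPM, above every control library, so that a level under the controls was measurable in replicate 4 alone. The fitted difference of the effect in DG from that in CA1 was −10.57 on the log2 scale (edgeR adjusted p = 0.12), and from that in CA3 −8.90 (adjusted p = 0.332), so neither passed the test. Both fitted sizes depend on the small count added to 0, because dissociated DG held 0 counts of Tyrobp. Pooled control DG was 2.37-fold above the level of 3 counts in dissociated DG, and 1.31-fold without DG control replicate 3.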

How the results depend on the processing

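The log2 fold change over the 3 regions kept its positive sign for Cx3cr1, P2ry12, Tmem119, Csf1r, Trem2, Siglech and Selplg in every alternative run. P2ry13 was −0.64 with log2(TPM + 0.1), and Tyrobp was −0.78 with it and −0.91 as the mean of the 3 within-region effects. The number of the 9 called higher (3) was 6 with no filter (of 275 genes higher and 70 lower, against 95 and 6), 6 with DESeq2 (404 and 61), 4 with RLE scaling (154 higher), 2 with log2(TPM + 1) (7 and 48) and 1 with log2(TPM + 0.1) (6 and 21). The mean of the 3 effects gave 22 genes lower. Without the 3 libraries under 500000 counts 2 of the 9 were called, with 14 genes higher and 0 lower. Among alternatives chosen after seeing the data, leaving out the 3 libraries with contrary region markers gave 31 genes higher and 2 lower and 1 receptor gene called in CA1, and CA1 and CA3 libraries alone gave 202 higher and 54 lower and 7 of the 9. Leaving out 1 library gave 37 (without CA1 control replicate 2) to 203 genes higher and 0 to 51 lower (both upper values without DG dissociated replicate 4), 3 to 8 of the 9 called over regions and 0 to 5 in CA1.

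In CA1, the 2 calls (of 25 genes called) became 4 with RLE (of 31), 4 with upper-quartile scaling (of 30), 7 with no filter (of 271), 8 with DESeq2 (of 201) and 0 without the shallow libraries (of 0). Over the fits that left out 1 CA1 library, they ran from 0 (of 0, without control replicate 2) to 5 (of 111, without dissociated replicate 1). In DG, no filter and DESeq2 called 1 (Cx3cr1; of 261 and 99 genes), and with no filter the interaction called 1 (Tyrobp; of 128). DESeq2 called none of the 9 between regions, nor in CA3, where it gave an adjusted p for only 2 of them (Cx3cr1 0.199, Csf1r 0.0969). Over all genes the median was −0.11 by TMM, against 0.12 by DESeq2. The causes were not tested.

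Values within DG turned with single libraries. Over the fits that left out 1 library, Tmem119 spanned −8.26 to 0.96, Trem2 −7.27 to 0.98 and Siglech −7.49 to 0.76, each turning without DG dissociated replicate 4, where 1 dissociated library is left and is taken to vary like the other groups. With a replicate block within region, those 3 were −8.34, 1.02 and 0.56. The block gave 216 genes higher and 164 lower, 7 of the 9 over regions and 7 in CA1 (of 299 genes called). Correlations of same-numbered libraries' deviations in CA1 and CA3 were −0.028 to 0.067. Taken from means of so few libraries, these deviations cannot show whether the numbers are pairs. The numbers were not taken as pairs in the main fit. Depth limits DG most: 3 counts are 46.8 CPM in its shallowest library.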

Other observations

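Reads of the receptor genes were divided by the authors' estimates among annotated transcripts. Csf1r-001 held 92.6% of the estimated counts of Csf1r, Tmem119-001 99.6% of Tmem119 and Selplg-001 98.5% of Selplg, while those of Siglech were spread over 8 transcripts, with at most 35.5% in 1. Trem2-002, a transcript of 1056 bases beside Trem2-001 of 1088 bases, held 47.7 and 70.4 estimated counts in CA1 and CA3 dissociated replicate 1, where Trem2-001 held 112 and 20.6. In control libraries Trem2-002 was above 0 in 2 of 7, with at most 5.03. The transcript of Cx3cr1 of 3729 bases held 0 estimated counts in CA1 dissociated replicate 3, where that of 3156 bases held 41. The shorter one held 0 in both dissociated and both control DG libraries. There the longer held 14 and 48 in dissociated and 42.2 and 235 in control DG. The shorter also held 0 in CA1 control replicate 3 and 3.1e-06 in CA3 control replicate 4. Such splits rest on few reads that tell the transcripts apart, and no test was made of them.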
